A study of Mus musculus with 12 samples.

Results

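The 52 genes described here act in mitosis and were named by their roles in cyclin B and Cdk1 activity, the spindle checkpoint, the centromere, condensin and cytokinesis, with the mitotic kinesins left aside as a list of their own. Each symbol matched 1 of the 55414 gene IDs of the count table, and all 52 passed the filter on low counts that kept 14310 genes. One of them, Cenpe, encodes a kinesin motor of the kinetochore, although the label of the group leaves kinesins out. The study followed macrophages from the calf muscle of C57BL6J wild type males, 8 to 12 weeks old, whose femoral artery had been ligated and excised to make the hindlimb ischemic. Macrophages were defined as CD11b+F4/80+CD64+ cells among the immune cells (CD45+) of the digested muscle, a gate that takes in infiltrated and circulating cells alike. RNA was profiled in 12 libraries, 3 for each day of sampling after the injury (1, 2, 4 and 7 dpi), and all of these mice carry the injury, so no uninjured group is compared. Whether mice were pooled for a library is not stated in the labels or methods read here, and P values then cover only the spread between libraries, which may be technical.

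Entry into mitosis depends on the kinase Cdk1, which is switched on by cyclin B and by the Cdc25 phosphatases. Centromeres then carry kinetochores that bind the spindle, the spindle checkpoint holds the cell until all chromosomes are attached, and the anaphase-promoting complex with its activator Cdc20 starts the separation of the chromosomes before cytokinesis divides the cell. Transcripts of most of these genes are known to build up late in the cell cycle, under the MuvB complex with the transcription factors B-Myb (Mybl2) and Foxm1, and their promoters often hold a cell cycle genes homology region (CHR) and CCAAT boxes. In muscle repair, macrophages are largely recruited from blood monocytes, and macrophages in the tissue are known to divide as well.

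Because promoters of such genes often hold a CHR and CCAAT boxes, RefSeq promoters (build GRCm38.p6) were searched for these motifs on both strands. Each promoter ran from 250 bases before to 50 after the transcription start. The motifs were TTTGAA and TTCGAA, either of which is called CHR here, and CCAAT. None of the motifs searched lies within another, but matches can share bases. In Cdca8, a CHR from base 14 after the start shared a base with a CCAAT match from base 19. Where a gene had several promoters, only the first listed was used. A promoter was found for 43 of the 52 members. A CHR was in 31 of them (72.1%), against 14.1% of the 10034 genes tested that had a promoter and 19.4% of all 27025 genes with a RefSeq promoter. CCAAT was in 30 of them (69.8%), against 38.7% of the genes tested, and both were in 27 (62.8%), against 5.93%. The mitotic kinesins held a CHR in 90.9% of 11 promoters, while the DNA replication genes held it in 15.4% of 39 and CCAAT in 61.5%. The list of further mitosis genes held a CHR in 51.6% of 62 promoters, CCAAT in 62.9% and both in 35.5%, the kinesins held CCAAT in 63.6%, and 8 promoters of MuvB and DREAM subunits held each motif in 37.5%. These matches are a description of letters and not of sites in use. The stretches below, from 150 bases before to 50 after the start and written 5′ to 3′ along the gene, were chosen to show members with different patterns, with the CHR and CCAAT matches in capitals (TTCAAA is TTTGAA read on the other strand).
Ccnb2 (chr9:70421505-70421704, minus strand): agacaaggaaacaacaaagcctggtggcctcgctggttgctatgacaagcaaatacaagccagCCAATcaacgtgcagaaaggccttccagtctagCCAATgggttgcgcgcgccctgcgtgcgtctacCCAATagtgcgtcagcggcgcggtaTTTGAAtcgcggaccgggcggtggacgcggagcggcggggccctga
Ccnb1 (chr13:100786437-100786636, minus strand): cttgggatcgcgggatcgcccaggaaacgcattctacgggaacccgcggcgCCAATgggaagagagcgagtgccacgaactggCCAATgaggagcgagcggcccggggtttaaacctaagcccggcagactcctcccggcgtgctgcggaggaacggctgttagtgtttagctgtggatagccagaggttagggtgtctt
Plk1 (chr7:122159285-122159484, plus strand): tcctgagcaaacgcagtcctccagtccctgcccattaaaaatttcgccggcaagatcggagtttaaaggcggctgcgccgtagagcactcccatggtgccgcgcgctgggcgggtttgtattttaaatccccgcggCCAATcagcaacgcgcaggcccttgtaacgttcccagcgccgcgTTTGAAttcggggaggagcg
Cdc20 (chr4:118437294-118437493, minus strand): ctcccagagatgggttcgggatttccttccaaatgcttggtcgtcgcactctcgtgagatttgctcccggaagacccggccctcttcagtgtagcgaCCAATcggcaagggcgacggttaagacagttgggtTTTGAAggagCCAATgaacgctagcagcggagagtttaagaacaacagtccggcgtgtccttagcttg
Bub3 (chr7:131560220-131560419, plus strand): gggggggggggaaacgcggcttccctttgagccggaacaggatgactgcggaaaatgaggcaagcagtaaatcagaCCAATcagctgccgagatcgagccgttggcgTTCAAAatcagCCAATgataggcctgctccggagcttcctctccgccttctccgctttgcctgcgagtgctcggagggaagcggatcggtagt

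Ccnb2 held 3 CCAAT boxes and a CHR just after the start in the stretch shown. Ccnb1 held 2 CCAAT boxes and no CHR in its 300 bases. Plk1 and Cdc20 held both motifs, as did Bub3, which is shown because it was not called in any comparison of successive days. Neither motif was in the promoters of Birc5, Nuf2, Mad2l1, Ncaph, Nusap1, Mybl2, Plk4, Pttg1 or Cenpp. Of these, Birc5 and Nuf2 were among the members of large change given below, while Plk4, Pttg1 and Cenpp were not called between successive days.

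Library totals were 19528316 to 33599472 counts (median 25331868.5), of which a single gene without a symbol took 14.8% to 55.7%. Without it 8992759 to 18581365 counts were left, and 15213 to 21257 genes had a count. The share of that gene differed by day, with 52.9% to 55.7% at 1 dpi and 40.3% to 46.0% at 2 dpi. At 4 dpi it was 45.0% to 49.7%, and at 7 dpi 14.8% to 30.1%. Counts left without it were 8992759 to 15812238 at 1 dpi and 16861728 to 18581365 at 7 dpi. Library scaling factors were 0.652 to 0.725 at 1 dpi, 0.889 to 1.05 at 2 and 4 dpi and 1.35 to 1.70 at 7 dpi. The 8 macrophage markers, among them Adgre1 (F4/80) and Fcgr1 (CD64), all had counts at each day, and their summed level was 2522 to 2866 CPM (counts scaled to an equal library size) at 1 dpi, 2863 to 2909 CPM at 2 dpi, 3577 to 4751 CPM at 4 dpi and 4167 to 4873 CPM at 7 dpi. Within this sum, Fcgr1 had 374 to 525 CPM at 1 dpi and 118 to 164 CPM at 7 dpi. Itgam (CD11b) had 169 to 191 and 31.1 to 44.3 CPM on these days, while C1qa had 173 to 218 and 1149 to 1740 CPM. Markers of other cells were present too. The 9 fibroblast markers summed to 307 to 395 CPM at 1 dpi, 542 to 605 CPM at 2 dpi, 500.3 to 765 CPM at 4 dpi and 598 to 996 CPM at 7 dpi, with none at 0. Gsn made up most of the sum up to 4 dpi, with 283 to 339.8 CPM at 1 dpi, 495 to 565 CPM at 2 dpi, 360.5 to 550.0 CPM at 4 dpi and 144 to 327 CPM at 7 dpi. The collagen gene Col1a1 had 1.73 to 10.2, 7.21 to 12.3, 52.3 to 98.0 and 143 to 314 CPM on these days, and Col1a1, Col1a2, Col3a1, Dcn, Lum and Dpt were higher in all 3 libraries of 7 dpi than in any other. The 5 B cell markers summed to 7.07 to 16.7, 15.8 to 21.6, 68.3 to 200.2 and 125 to 175 CPM on the 4 days in the same order, with Pax5 at 0 at 4 and 7 dpi. At 4 and 7 dpi nearly all of that sum was the immunoglobulin gene Ighm (64.0 to 193 CPM and 118 to 166 CPM), while Ms4a1, Cd79a and Pax5 had at most 0.788 CPM in any library. Cd79b had 1.02 to 2.83, 2.33 to 3.58, 3.87 to 6.75 and 6.56 to 8.85 CPM on the 4 days in the same order. The 11 myogenic and muscle markers summed to 6.55 to 14.1, 5.23 to 8.06, 17.8 to 25.6 and 42.1 to 91.0 CPM, with Pax7, Myf5, Myog, Mymk and Myh8 at 0 at 1 dpi and Myog, Mymk and Myh8 at 0 at 2 dpi. The 13 neutrophil markers summed to 137 to 207, 55.7 to 64.7, 63.4 to 82.8 and 43.6 to 52.8 CPM. Of them Camp was at 0 on all 4 days, Ly6g and Ngp at 2, 4 and 7 dpi, S100a9 and Elane at 4 dpi, and S100a8 and Retnlg at 7 dpi. Csf3r had 42.7 to 61.3, 22.1 to 27.4, 41.2 to 65.9 and 41.4 to 51.4 CPM on the 4 days in the same order. Mmp8 had 45.9 to 83.6, 28.2 to 28.4, 15.8 to 20.5 and 0.308 to 3.73 CPM. At 1 dpi S100a8 had 10.6 to 38.7 CPM and Cxcr2 6.46 to 26.9 CPM. The 8 endothelial markers summed to 29.3 to 37.8, 26.7 to 51.0, 23.4 to 33.1 and 39.1 to 94.8 CPM, and the 7 dendritic cell markers to 4.66 to 14.5, 2.85 to 4.68, 7.55 to 9.39 and 9.66 to 30.4 CPM, with none at 0 on any day. Of the 9 T and NK cell markers Il7r had 18.2 to 85.2 CPM and the other 8 at most 0.832 CPM, and the 5 erythroid markers summed to 1.38 to 7.20 CPM. The part of these cells in the values below was not tested.

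Most of the mitosis genes had few or no counts at 1 dpi, rose at 2 dpi, rose again at 4 dpi and fell at 7 dpi. Their summed level was 115 to 120.0 CPM in the 3 libraries of 1 dpi, 302 to 347 CPM at 2 dpi, 738 to 998 CPM at 4 dpi and 248 to 594 CPM at 7 dpi. Bub3 alone made up 34.1% to 35.3% of the sum at 1 dpi, against 4.66% to 5.81% at 4 dpi. The median member had 0.314 to 0.508 CPM in the libraries of 1 dpi and 11.3 to 15.1 CPM in those of 4 dpi. The sums of 1, 2 and 4 dpi did not overlap, and those of 7 dpi spread on both sides of 2 dpi. In bulk samples, fewer cells of a type and less RNA per cell cannot be told apart. The mean CPM was highest at 4 dpi for 46 of the 52 members, at 7 dpi for 5 and at 2 dpi for 1. At 2 dpi the median member had 29.3% of its mean at 4 dpi, and at 7 dpi it had 36.6%.

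**Figure D1:**
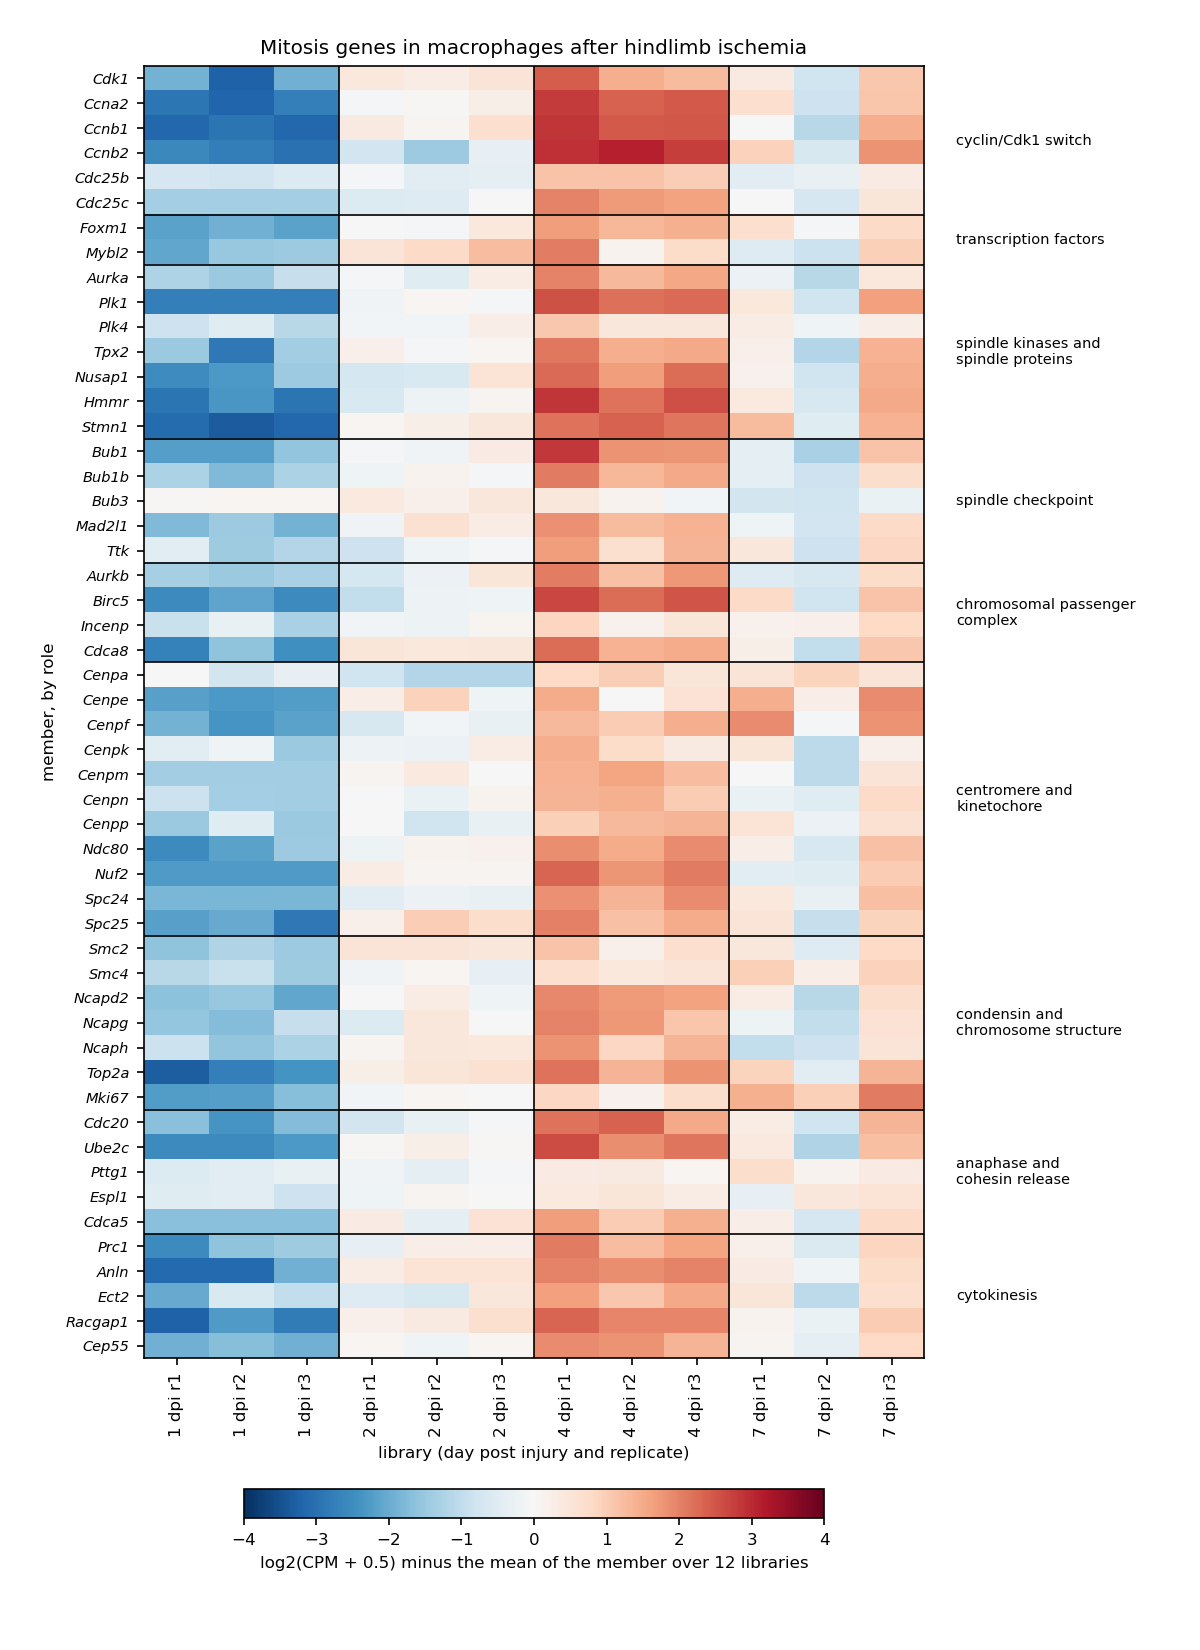
Level of each of the 52 members (rows, by role) in the 12 libraries (columns, r1 to r3 being the replicates), as log2(CPM + 0.5) minus the mean of that member, blue below and red above it. Most rows are lowest at 1 dpi and highest at 4 dpi, and 7 dpi replicate 2 has the lowest value of its day in 47 of 52 rows.

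At 2 dpi against 1 dpi, 41 of the 52 members rose, where 5.09% of all genes tested rose. A gene was called when its false discovery rate (FDR) in the edgeR quasi-likelihood test was under 0.05 and its log2 fold change (log2FC) above 1 or below -1. None of the members fell by this rule (3.97% of all genes did), with 1 member lower at an unadjusted P under 0.05 and 0 called lower by DESeq2, which called 40 higher. The median log2FC was 3.20, against 0.01 over all genes tested. All 3 libraries of 2 dpi lay above all 3 of 1 dpi for 46 members, where 20.9% of all genes did so, and below for 1 (18.5% of all genes). Only 17 members had all 3 libraries of 1 dpi at or over the minimum of the filter (0.395 CPM), so that many members passed it through the later days. Of the 52, 6 had no count at 1 dpi and another 4 had 2 counts over the 3 libraries. A floor of 3 counts over the 3 libraries gives lower bounds for the 6 without a count.

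At 4 dpi against 2 dpi, 36 of the 52 members rose, where 8.02% of all genes tested rose. None fell (3.88% of all genes did), with 0 lower at an unadjusted P under 0.05 and 0 by DESeq2, which called 38 higher. The median log2FC was 1.76, against 0.04 over all genes tested. All 3 libraries of 4 dpi lay above those of 2 dpi for 48 members, where 22.3% of all genes did so, and below for none (21.8% of all genes). The count of 36 dropped to 21 without 2 dpi replicate 1 and was 26 without 2 dpi replicate 2.

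At 7 dpi against 4 dpi, 32 of the 52 members fell, where 5.2% of all genes tested fell. None rose (7.44% of all genes did), with 1 member, Mki67, higher at an unadjusted P under 0.05 and also called higher by DESeq2, which called 30 lower. The median log2FC was -1.45, against -0.03 over all genes tested, and leaving out 7 dpi replicate 3 gave a median of -2.05, leaving out 7 dpi replicate 2 one of -1.09. All 3 libraries of 7 dpi lay below those of 4 dpi for 39 members, where 20.7% of all genes did so, and above for 1, where 19.3% did. Without 7 dpi replicate 2 the count of 32 was 19, and without 4 dpi replicate 1 or 7 dpi replicate 1 it was 20. Among 2, 4 and 7 dpi, the libraries of 7 dpi differed most from each other, with a median ratio of the highest to the lowest library of 1.42 at 2 dpi, 1.53 at 4 dpi and 3.82 at 7 dpi. Replicate 3 was the highest of that day in 46 members and replicate 2 the lowest in 47. Replicate 2 also had the largest share of counts from mitochondrial DNA outside the gene without a symbol, 18.9%, where the other 11 libraries had 4.77% to 12.5%. It had the highest sums of endothelial (94.8 CPM) and dendritic cell markers (30.4 CPM) of the 12 libraries. The part of both in these values was not tested.

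Most members were still above their level of 1 dpi at 7 dpi. At 7 dpi against 1 dpi, 47 of 52 members were called higher (19.7% of all genes tested), and none lower (14% of all genes), with 1 lower at an unadjusted P under 0.05, Bub3, and 0 by DESeq2, which called 47 higher. The median log2FC was 3.62 (3.05 without 7 dpi replicate 3), against 0.16 over all genes. All 3 libraries of 7 dpi lay above those of 1 dpi for 45 members, where 30% of all genes did so, and below for 1 (25.9%). Over the 3 comparisons of successive days, 29 members were called higher, higher and lower. Another 7 rose at 2 dpi and were not called afterwards (Cdca5, Cenpe, Mki67, Mybl2, Smc2, Smc4 and Spc25), and 7 were called in none (Bub3, Cenpk, Cenpp, Espl1, Incenp, Plk4 and Pttg1). Cenpf, Nusap1 and Tpx2 rose at 2 and at 4 dpi and were not called lower at 7 dpi, Cenpa, Ect2 and Ttk were called at 4 dpi alone, Cdk1 and Cenpm rose at 2 dpi and fell at 7 dpi, and Cdc25b rose at 4 dpi and fell at 7 dpi.

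**Figure D2:**
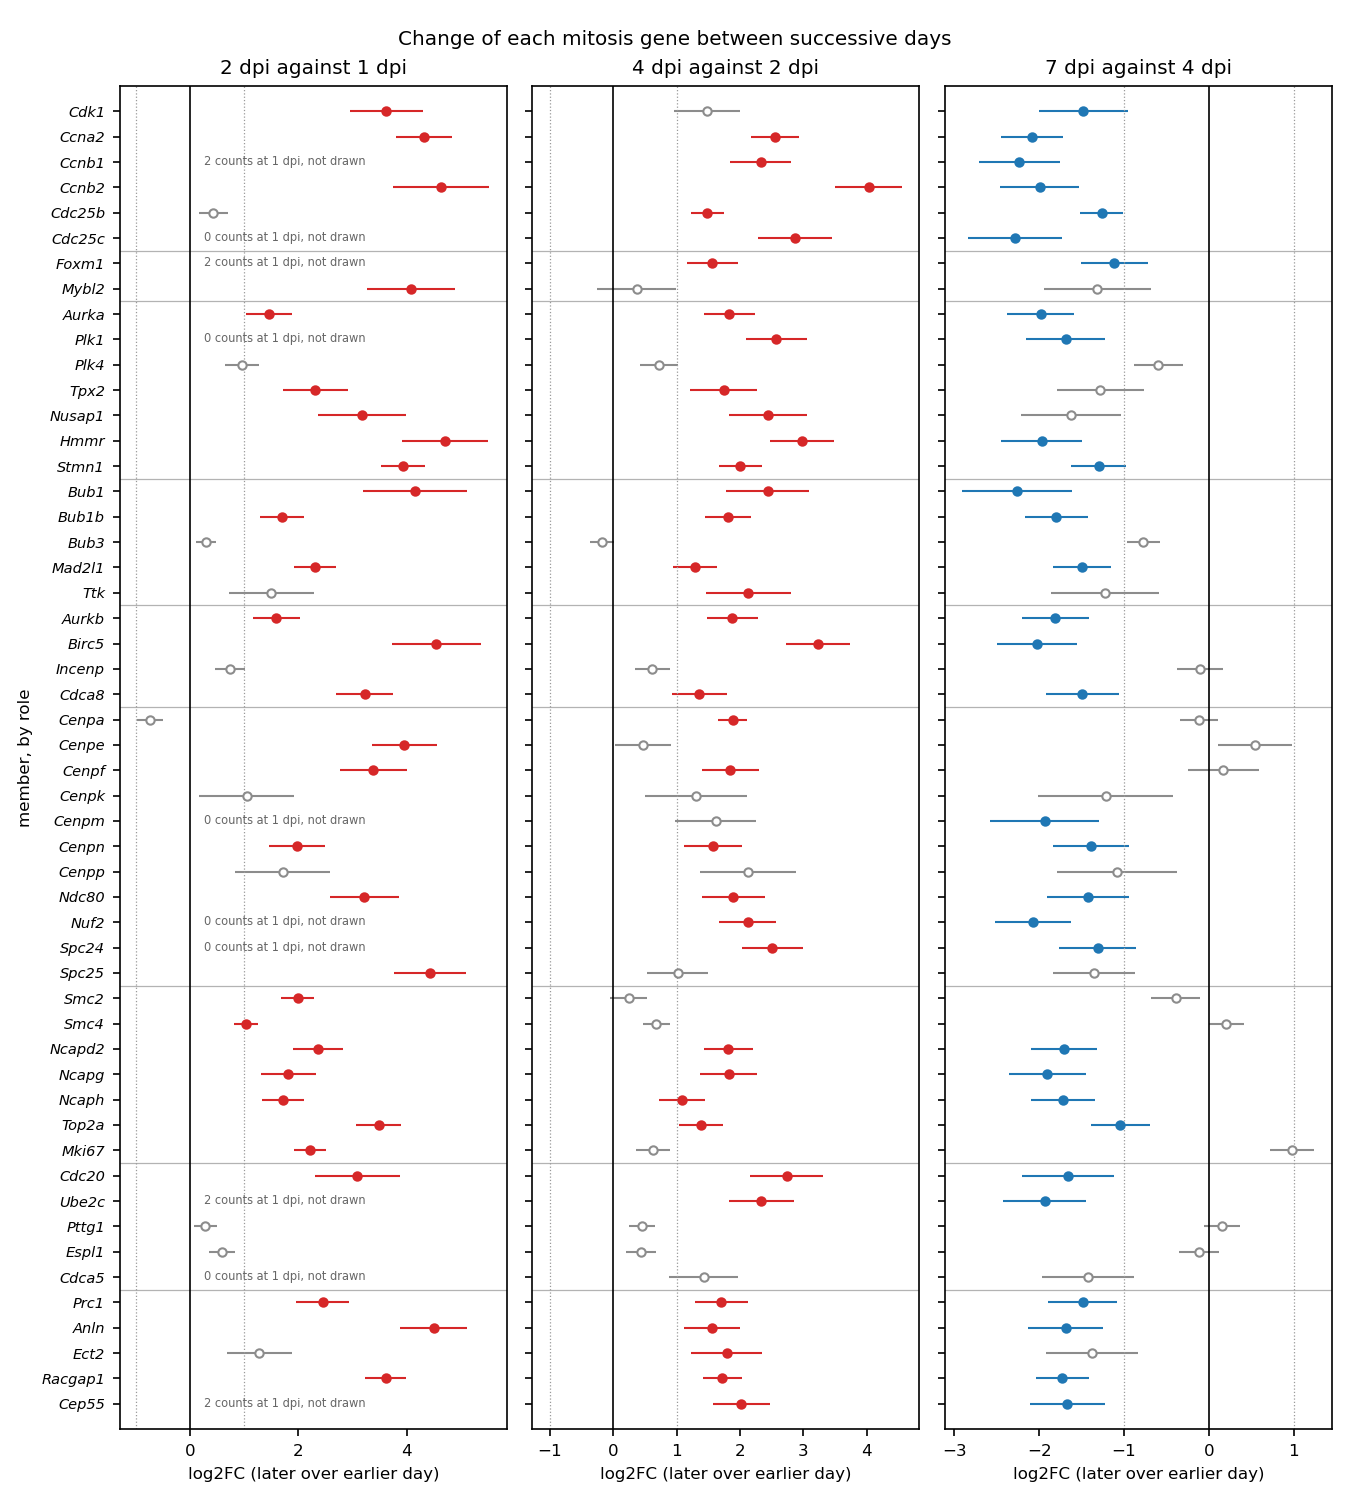
Log2FC (x axis, later over earlier day) of each member (y axis, by role) in the 3 comparisons of successive days, with bars of 1 SE, filled red where called higher, filled blue where called lower and open grey where not called, and dotted lines at the fold threshold. Members with 0 to 3 counts at 1 dpi are not drawn in the left panel, and 41, 36 and 32 of the 52 members are called in the 3 panels.

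The switch into mitosis is made by cyclin B with Cdk1, and 5 of its 6 genes rose at 2 dpi, 5 rose at 4 dpi and all 6 fell at 7 dpi. Ccnb1, which encodes cyclin B1, had 0, 0.0821 and 0 CPM at 1 dpi, 5.18, 4.28 and 6.52 CPM at 2 dpi, 32.0, 23.8 and 24.6 CPM at 4 dpi, and 3.89, 1.54 and 11.6 CPM at 7 dpi. It was all but absent at 1 dpi, the 4 dpi libraries lay above all others, and 2 and 7 dpi overlapped. With 2 counts at 1 dpi and 406 at 2 dpi its ratio was 160 (95% counting interval 44.0 to 1324), and the log2FC was 2.33 ± 0.48 (SE, edgeR FDR = 0.00311) at 4 dpi against 2 dpi and -2.23 ± 0.48 (SE, edgeR FDR = 0.00422) at 7 dpi against 4 dpi. Ccnb2, cyclin B2, had 0.157, 0.0821 and 0 CPM at 1 dpi, 1.80, 0.946 and 2.65 CPM at 2 dpi, 29.6, 33.3 and 26.7 CPM at 4 dpi, and 7.02, 2.03 and 13.4 CPM at 7 dpi. Its libraries of 4 dpi stood far above the rest, and its log2FC of 4.03 ± 0.52 (SE, edgeR FDR = 7.79e-05) was the largest rise among members at 4 dpi against 2 dpi. At 2 dpi it had 6.02% of its mean at 4 dpi, where Ccnb1 had 19.9%. Ccna2, cyclin A2, which works in S phase and up to mitosis, had 0.314, 0.164 and 0.415 CPM at 1 dpi, 5.30, 5.77 and 6.67 CPM at 2 dpi, 41.7, 30.2 and 32.3 CPM at 4 dpi, and 9.18, 2.90 and 12.5 CPM at 7 dpi. The days 1, 2 and 4 dpi did not overlap, and its log2FC was 4.32 ± 0.52 (SE, edgeR FDR = 6.89e-05) at 2 dpi against 1 dpi, 2.55 ± 0.37 (SE, edgeR FDR = 0.000219) at 4 dpi against 2 dpi and -2.08 ± 0.36 (SE, edgeR FDR = 0.00142) at 7 dpi against 4 dpi.

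Cdk1, the kinase itself, had 0.786, 0 and 0.738 CPM at 1 dpi, 5.82, 5.28 and 6.24 CPM at 2 dpi, 24.9, 12.6 and 10.9 CPM at 4 dpi, and 5.61, 2.25 and 9.50 CPM at 7 dpi. Cdk1 rose at 2 dpi, with a log2FC of 3.62 ± 0.67 (SE, edgeR FDR = 0.00209), and its 1.48 ± 0.52 at 4 dpi missed the FDR (0.0569) although all 4 dpi libraries were above those of 2 dpi, with replicate 1 far above the other two. Its fall at 7 dpi, -1.48 ± 0.52 (SE, edgeR FDR = 0.0467), was lost in 13 of 19 alternatives of processing or of libraries left out, with FDRs up to 0.207. The phosphatases that switch Cdk1 on differed at the start. Cdc25b had 2.99, 2.79 and 3.32 CPM at 1 dpi, 4.81, 3.68 and 3.73 CPM at 2 dpi, 11.7, 11.9 and 10.5 CPM at 4 dpi, and 3.70, 4.00 and 6.53 CPM at 7 dpi. It was present at 1 dpi, was not called at 2 dpi (0.43 ± 0.27 (SE, edgeR FDR = 0.329)), rose at 4 dpi (1.48 ± 0.26 (SE, edgeR FDR = 0.000897)) and fell at 7 dpi (-1.26 ± 0.25 (SE, edgeR FDR = 0.00301)). Cdc25c had 0 CPM in all 3 libraries at 1 dpi, 0.376, 0.398 and 0.788 CPM at 2 dpi, 4.54, 3.64 and 3.42 CPM at 4 dpi, and 0.756, 0.308 and 1.30 CPM at 7 dpi. It had no count at 1 dpi, was at least 10.5-fold higher at 2 dpi and at least 77.5-fold higher at 4 dpi than the floor at 1 dpi, and its log2FC of -2.29 ± 0.56 (SE, edgeR FDR = 0.0101) was the largest fall among members at 7 dpi against 4 dpi. The mean of Cdc25c at 7 dpi was 20.4% of that at 4 dpi.

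**Figure D3:**
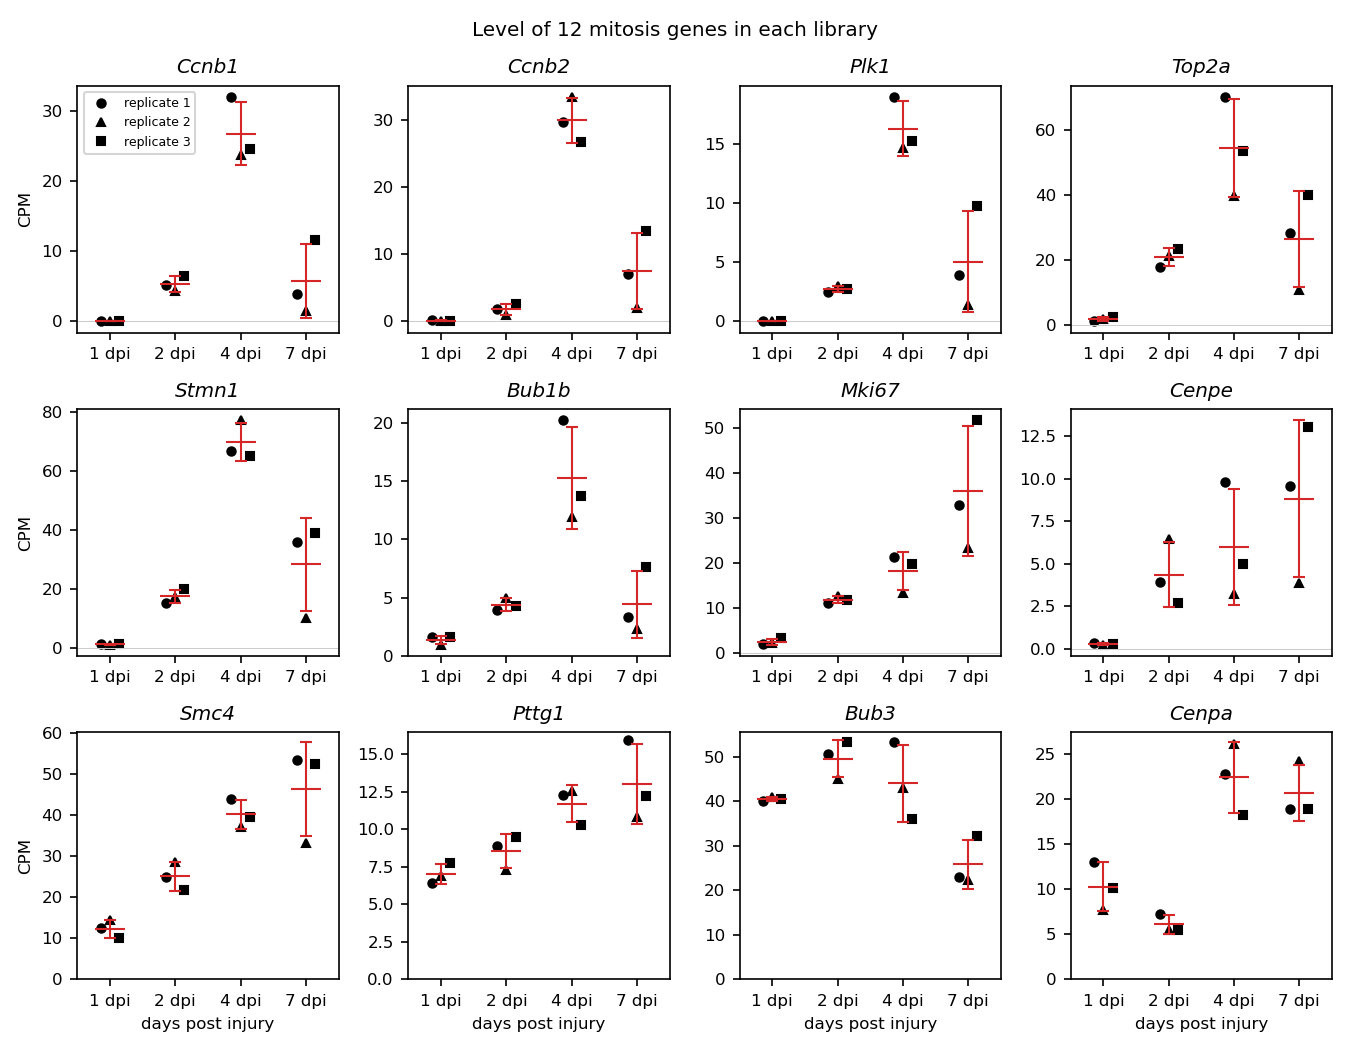
CPM (y axis) of 12 members in each library by day (x axis), with a symbol per replicate and red bars for the mean and 1 SD of 3 libraries. Ccnb1, Ccnb2 and Plk1 peak at 4 dpi, the highest library of Mki67 is at 7 dpi (51.8 CPM), Bub3 is at 40.0 to 40.9 CPM at 1 dpi, and Cenpa is lowest at 2 dpi.

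Of the transcription factors, Foxm1, an activator of genes of the G2 and M phases, had 0, 0.0821 and 0 CPM at 1 dpi, 1.65, 1.59 and 2.44 CPM at 2 dpi, 6.50, 5.02 and 5.36 CPM at 4 dpi, and 2.97, 1.60 and 3.22 CPM at 7 dpi. Its libraries of 4 dpi were above all others. The ratio of 2 dpi to the 2 counts at 1 dpi was 56.7 (95% counting interval 15.4 to 473), and its log2FC was 1.57 ± 0.40 (SE, edgeR FDR = 0.0119) at 4 dpi against 2 dpi. The fall at 7 dpi, -1.11 ± 0.39 (SE, edgeR FDR = 0.0469), was lost in 13 of 19 alternatives, with FDRs up to 0.156. Mybl2, or B-Myb, had 0, 0.246 and 0.277 CPM at 1 dpi, 2.55, 3.09 and 4.52 CPM at 2 dpi, 8.23, 1.82 and 2.99 CPM at 4 dpi, and 0.972, 0.678 and 3.62 CPM at 7 dpi. Mybl2 rose at 2 dpi (4.08 ± 0.81 (SE, edgeR FDR = 0.00325)), and the 4 dpi libraries then spread on both sides of those of 2 dpi, with a log2FC of 0.37 ± 0.62 (SE, edgeR FDR = 0.724). At 2 dpi Mybl2 had 77.9% of its mean at 4 dpi and Foxm1 33.7%. The subunits of MuvB and the DREAM complex, which bind such promoters, were the next list. Of 10 tested, 3 rose at 2 dpi and 2 at 4 dpi. Between 7 dpi and 4 dpi edgeR and DESeq2 called 0 of the 10, and at an unadjusted P under 0.05 edgeR had 2 higher and 1 lower, against 2542 higher and 3082 lower of all 14310 genes tested. Their median log2FC was 0.40, 0.16 and -0.27 in these comparisons. Tfdp2, a partner of E2F factors, had 0.786, 0.739 and 0.784 CPM at 1 dpi, 3.23, 4.23 and 3.73 CPM at 2 dpi, 7.74, 14.8 and 13.4 CPM at 4 dpi, and 12.4, 12.2 and 7.72 CPM at 7 dpi, with a log2FC of 2.27 ± 0.33 (SE, edgeR FDR = 0.000275) at 2 dpi and 1.68 ± 0.28 (SE, edgeR FDR = 0.000586) at 4 dpi. The p107 gene Rbl1 rose by 1.39 on the log2 scale at 2 dpi and the p130 gene Rbl2 by 1.02 at 4 dpi.

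Among the 7 genes of spindle kinases and spindle proteins, 6 rose at 2 dpi, 6 rose at 4 dpi and 4 fell at 7 dpi. Plk1, a kinase needed from mitotic entry to cytokinesis, had 0 CPM in all 3 libraries at 1 dpi, 2.52, 2.99 and 2.72 CPM at 2 dpi, 19.0, 14.7 and 15.3 CPM at 4 dpi, and 3.97, 1.42 and 9.78 CPM at 7 dpi. It had no count at 1 dpi, was close to the same in the 3 libraries of 2 dpi, and was highest in those of 4 dpi. Against the floor at 1 dpi it was at least 53.3-fold higher at 2 dpi and at least 327-fold higher at 4 dpi, and its log2FC was 2.57 ± 0.49 (SE, edgeR FDR = 0.00212) at 4 dpi against 2 dpi and -1.69 ± 0.46 (SE, edgeR FDR = 0.017) at 7 dpi against 4 dpi. Its fall lost the call without 7 dpi replicate 1 (log2FC -1.54, edgeR FDR = 0.065). Aurka, the kinase of spindle poles, had 1.10, 0.821 and 1.48 CPM at 1 dpi, 3.00, 2.19 and 4.09 CPM at 2 dpi, 14.2, 8.61 and 10.4 CPM at 4 dpi, and 2.64, 1.23 and 4.52 CPM at 7 dpi. The libraries of 2 and 4 dpi did not overlap. Its log2FC was 1.45 ± 0.43 (SE, edgeR FDR = 0.0361) at 2 dpi, a call lost in 5 of 19 alternatives, 1.83 ± 0.40 (SE, edgeR FDR = 0.00415) at 4 dpi and -1.98 ± 0.40 (SE, edgeR FDR = 0.00289) at 7 dpi. Plk4, which starts the duplication of centrioles, had 2.04, 2.67 and 1.57 CPM at 1 dpi, 3.68, 3.68 and 4.87 CPM at 2 dpi, 8.92, 5.59 and 5.62 CPM at 4 dpi, and 4.97, 3.51 and 4.86 CPM at 7 dpi. Its 7 dpi libraries lay just below those of 4 dpi, and its log2FCs of 0.96 ± 0.31, 0.72 ± 0.29 and -0.60 ± 0.29 in the 3 successive comparisons were not called.

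Stmn1, which encodes the tubulin-binding stathmin, had 1.26, 0.985 and 1.20 CPM at 1 dpi, 15.2, 17.0 and 19.8 CPM at 2 dpi, 66.9, 77.1 and 65.1 CPM at 4 dpi, and 35.7, 10.2 and 39.1 CPM at 7 dpi. The 3 libraries of 4 dpi were the highest and those of 1 dpi the lowest, without overlap with other days. Its log2FC was 3.93 ± 0.41 (SE, edgeR FDR = 2.90e-05) at 2 dpi, 2.01 ± 0.34 (SE, edgeR FDR = 0.000679) at 4 dpi and -1.30 ± 0.33 (SE, edgeR FDR = 0.0103) at 7 dpi, the last below the fold threshold without 7 dpi replicate 2 (log2FC -0.89). Hmmr, a spindle protein, had 0, 0.246 and 0 CPM at 1 dpi, 1.95, 2.79 and 3.51 CPM at 2 dpi, 26.6, 16.4 and 22.0 CPM at 4 dpi, and 4.43, 1.91 and 10.2 CPM at 7 dpi. It was almost absent at 1 dpi and its log2FC of 2.98 ± 0.50 (SE, edgeR FDR = 0.000726) at 4 dpi was among the 3 largest of that comparison. Hmmr fell at 7 dpi, with -1.97 ± 0.48 (SE, edgeR FDR = 0.00819). Tpx2, an activator of Aurora A, and Nusap1, which bundles microtubules, rose at 2 and at 4 dpi, with log2FCs of 1.74 ± 0.53 and 2.44 ± 0.62 (SE) at 4 dpi, and at 7 dpi they had -1.28 ± 0.51 (edgeR FDR = 0.0769) and -1.62 ± 0.59 (edgeR FDR = 0.0528). Their calls at 4 dpi were lost in 6 of 19 and 2 of 19 alternatives.

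The spindle checkpoint genes did not move as one. Of 5, 3 rose at 2 dpi, 4 at 4 dpi and 3 fell at 7 dpi. Bub1b, whose product BubR1 is part of the mitotic checkpoint complex, had 1.57, 0.944 and 1.57 CPM at 1 dpi, 3.91, 4.98 and 4.23 CPM at 2 dpi, 20.2, 11.9 and 13.7 CPM at 4 dpi, and 3.29, 2.28 and 7.63 CPM at 7 dpi. The 4 dpi libraries lay above all others, replicate 1 most. Its log2FC was 1.70 ± 0.41 (SE, edgeR FDR = 0.0112) at 2 dpi, 1.81 ± 0.37 (SE, edgeR FDR = 0.00282) at 4 dpi and -1.80 ± 0.37 (SE, edgeR FDR = 0.00317) at 7 dpi. Bub1, a kinase of the kinetochore, had 0, 0 and 0.277 CPM at 1 dpi, 1.65, 1.59 and 2.37 CPM at 2 dpi, 15.6, 7.46 and 7.29 CPM at 4 dpi, and 1.30, 0.431 and 4.61 CPM at 7 dpi. Among its libraries, 4 dpi replicate 1 was the highest. Its fall of -2.26 ± 0.65 (SE, edgeR FDR = 0.0187) at 7 dpi was among the 3 largest, and was lost in 4 of 19 alternatives. Mad2l1, the checkpoint protein Mad2, had 1.26, 1.64 and 1.11 CPM at 1 dpi, 4.88, 8.46 and 6.81 CPM at 2 dpi, 20.4, 13.9 and 14.9 CPM at 4 dpi, and 4.80, 3.02 and 9.55 CPM at 7 dpi. It rose by 2.31 ± 0.39 (SE, edgeR FDR = 0.000979) at 2 dpi and by 1.29 ± 0.34 (SE, edgeR FDR = 0.0145) at 4 dpi on the log2 scale, and at 7 dpi had -1.50 ± 0.34 (SE, edgeR FDR = 0.00611), a fall.

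Bub3, which binds Bub1 and BubR1, had 40.0, 40.9 and 40.6 CPM at 1 dpi, 50.6, 45.0 and 53.3 CPM at 2 dpi, 53.2, 42.9 and 36.1 CPM at 4 dpi, and 23.1, 22.2 and 32.2 CPM at 7 dpi. It lay between 36.1 and 53.3 CPM at 1, 2 and 4 dpi and was lower in all 3 libraries of 7 dpi. Its log2FC was 0.29 ± 0.19 (SE, edgeR FDR = 0.348) at 2 dpi, -0.17 ± 0.19 (SE, edgeR FDR = 0.573) at 4 dpi and -0.77 ± 0.19 (SE, edgeR FDR = 0.00944) at 7 dpi, the last past the FDR and short of the fold threshold. Against 1 dpi, it had -0.65 ± 0.19 (SE, edgeR FDR = 0.0103) at 7 dpi, below the fold threshold too, while 47 of the other members were called higher. Ttk, the checkpoint kinase Mps1, was called at 4 dpi alone, with 2.13 ± 0.67 (SE, edgeR FDR = 0.0353), a call lost in 5 of 19 alternatives.

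The chromosomal passenger complex joins Aurora B to Incenp, survivin and borealin. Of its 4 genes, 3 rose at 2 dpi, the same number rose at 4 dpi and the same number fell at 7 dpi. Birc5, survivin, had 0, 0.164 and 0 CPM at 1 dpi, 0.977, 1.99 and 2.08 CPM at 2 dpi, 18.1, 13.1 and 16.0 CPM at 4 dpi, and 4.43, 1.17 and 5.94 CPM at 7 dpi. The 4 dpi libraries were the highest and did not overlap any other day, and the log2FC of 3.23 ± 0.51 (SE, edgeR FDR = 0.000382) was among the 3 largest at 4 dpi. At 2 dpi it had 10.7% of its mean at 4 dpi, and it fell at 7 dpi (-2.03 ± 0.47 (SE, edgeR FDR = 0.0065)). Aurkb, Aurora B, had 1.41, 1.23 and 1.48 CPM at 1 dpi, 2.48, 3.58 and 6.31 CPM at 2 dpi, 19.3, 10.5 and 15.7 CPM at 4 dpi, and 2.89, 2.59 and 7.52 CPM at 7 dpi. It was detected in all libraries of 1 dpi. Aurkb rose at 2 dpi (1.59 ± 0.44 (SE, edgeR FDR = 0.0246)), a call lost in 4 of 19 alternatives, rose at 4 dpi (1.88 ± 0.40 (SE, edgeR FDR = 0.0039)) and fell at 7 dpi (-1.81 ± 0.40 (SE, edgeR FDR = 0.00508)). Incenp, the scaffold, had 5.82, 9.19 and 4.34 CPM at 1 dpi, 10.6, 9.66 and 12.1 CPM at 2 dpi, 20.7, 12.7 and 16.1 CPM at 4 dpi, and 12.8, 13.2 and 20.2 CPM at 7 dpi. Its 4 and 7 dpi libraries overlapped, with log2FCs of 0.73 ± 0.28, 0.62 ± 0.27 and -0.10 ± 0.27 in the successive comparisons, none called, and 1.25 ± 0.28 (SE, edgeR FDR = 0.00159) at 7 dpi against 1 dpi, a call. Cdca8, borealin, rose by 3.23 ± 0.53 at 2 dpi and 1.36 ± 0.44 at 4 dpi and had -1.49 ± 0.43 at 7 dpi, and the last 2 calls were lost in 6 of 19 and 3 of 19 alternatives.

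Among the 11 centromere and kinetochore genes, 8 rose at 2 dpi, 6 at 4 dpi and 5 fell at 7 dpi. Nuf2 and Ndc80 form the part of the kinetochore that binds microtubules. Nuf2 had 0 CPM in all 3 libraries at 1 dpi, 2.48, 2.09 and 2.08 CPM at 2 dpi, 11.7, 7.64 and 9.66 CPM at 4 dpi, and 1.24, 1.23 and 4.41 CPM at 7 dpi. It had no count at 1 dpi and its 4 dpi libraries were the highest. Nuf2 was at least 43.6-fold higher at 2 dpi and at least 194-fold higher at 4 dpi than the floor at 1 dpi, rose by 2.12 ± 0.45 (SE, edgeR FDR = 0.00456) at 4 dpi against 2 dpi and had -2.07 ± 0.44 (SE, edgeR FDR = 0.0053) at 7 dpi, a fall. Ndc80 had 0, 0.164 and 0.554 CPM at 1 dpi, 2.03, 2.69 and 2.80 CPM at 2 dpi, 9.98, 7.64 and 10.3 CPM at 4 dpi, and 3.00, 1.36 and 6.05 CPM at 7 dpi. Its days 2 and 4 dpi did not overlap, with a log2FC of 1.89 ± 0.50 (SE, edgeR FDR = 0.0139), and the fall at 7 dpi (-1.42 ± 0.48 (SE, edgeR FDR = 0.0414)) was lost in 10 of 19 alternatives. Of the other 2 subunits of the same complex, Spc24 had no count at 1 dpi and was at least 17.8-fold higher at 2 dpi, and Spc25 rose at 2 dpi and missed the FDR at 4 dpi (0.155) and at 7 dpi (0.0504).

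Cenpa, the histone H3 variant that marks centromeres, had 13.0, 7.63 and 10.2 CPM at 1 dpi, 7.29, 5.48 and 5.45 CPM at 2 dpi, 22.8, 26.1 and 18.3 CPM at 4 dpi, and 18.9, 24.2 and 18.9 CPM at 7 dpi. All 3 libraries of 2 dpi lay below those of 1 dpi, and those of 4 and 7 dpi overlapped at the top. Its log2FC was -0.75 ± 0.23 (SE, edgeR FDR = 0.0449) at 2 dpi, past the FDR but within the fold threshold, and 1.88 ± 0.23 (SE, edgeR FDR = 5.57e-05) at 4 dpi, a rise. At 7 dpi against 4 dpi it was -0.12 ± 0.22 (SE, edgeR FDR = 0.727), and its mean at 7 dpi was 92.2% of that at 4 dpi. Cenpe, the kinesin motor named above, had 0.314, 0.246 and 0.277 CPM at 1 dpi, 3.91, 6.47 and 2.72 CPM at 2 dpi, 9.80, 3.20 and 5.00 CPM at 4 dpi, and 9.55, 3.88 and 13.0 CPM at 7 dpi. It rose at 2 dpi (3.96 ± 0.59 (SE, edgeR FDR = 0.000389)), and from then on the days overlapped, with 0.47 ± 0.44 (SE, edgeR FDR = 0.488) at 4 dpi and 0.55 ± 0.43 (SE, edgeR FDR = 0.365) at 7 dpi. Cenpf, a large kinetochore protein, rose at 2 and 4 dpi, with 1.84 ± 0.45 (SE, edgeR FDR = 0.00876) at 4 dpi, and had 0.17 ± 0.42 (SE, edgeR FDR = 0.793) at 7 dpi against 4 dpi. Among its 7 dpi libraries, replicate 2 had 2.34 CPM and the others 10.6 and 9.81 CPM.

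Cenpk, a subunit of the constitutive centromere-associated network, had 0.55, 0.739 and 0 CPM at 1 dpi, 0.714, 0.697 and 1.22 CPM at 2 dpi, 3.39, 1.82 and 1.32 CPM at 4 dpi, and 1.48, 0.185 and 1.13 CPM at 7 dpi. Its libraries overlapped between 1 and 2 dpi and between 4 and 7 dpi, and no comparison called it. Cenpp had 0, 0.493 and 0 CPM at 1 dpi, 0.901, 0.299 and 0.645 CPM at 2 dpi, 2.21, 2.93 and 3.07 CPM at 4 dpi, and 1.54, 0.678 and 1.64 CPM at 7 dpi. It was low at 1 and 2 dpi, its log2FC of 2.13 ± 0.75 (SE, edgeR FDR = 0.057) at 4 dpi was not called, and the call was gained in 8 of 19 alternatives. Cenpp belongs to the same network. Cenpm, also of it, had no count at 1 dpi, was at least 18.4-fold higher at 2 dpi, and fell at 7 dpi (-1.93 ± 0.65 (SE, edgeR FDR = 0.0404)), a call lost in 9 of 19 alternatives. Cenpn rose at 2 and 4 dpi and fell at 7 dpi, with calls lost in 4 of 19, 4 of 19 and 5 of 19 alternatives.

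All 7 genes of condensin and chromosome structure rose at 2 dpi, and 4 rose at 4 dpi and 4 fell at 7 dpi. Smc2 and Smc4 are the ATPase core of both condensins. Smc2 had 4.87, 6.57 and 5.49 CPM at 1 dpi, 22.8, 22.9 and 21.7 CPM at 2 dpi, 35.8, 18.3 and 25.6 CPM at 4 dpi, and 22.1, 10.9 and 27.8 CPM at 7 dpi. Smc2 rose at 2 dpi (1.98 ± 0.31 (SE, edgeR FDR = 0.000512)), and at 4 dpi 1 library lay below all 3 of 2 dpi, with a log2FC of 0.24 ± 0.29 (SE, edgeR FDR = 0.597). Smc4 had 12.5, 14.4 and 9.92 CPM at 1 dpi, 24.9, 28.7 and 21.6 CPM at 2 dpi, 43.9, 37.1 and 39.6 CPM at 4 dpi, and 53.5, 33.2 and 52.5 CPM at 7 dpi. Its 4 and 7 dpi libraries overlapped. Its rise at 2 dpi, 1.03 ± 0.21 (SE, edgeR FDR = 0.00436), was just over the fold threshold and fell under it in 4 of 19 alternatives, and it had 0.68 ± 0.21 (SE, edgeR FDR = 0.0302) at 4 dpi and 0.21 ± 0.21 (SE, edgeR FDR = 0.481) at 7 dpi. The non-SMC subunits of condensin I, Ncapd2, Ncapg and Ncaph, rose at 2 and 4 dpi and fell at 7 dpi, with log2FCs of -1.71 ± 0.39, -1.90 ± 0.45 and -1.72 ± 0.37 (SE) at 7 dpi. At 7 dpi their means were 30.6%, 26.7% and 30.4% of those at 4 dpi, where Smc2 had 76.4% and Smc4 115%. The call of Ncaph at 4 dpi was lost in 6 of 19 alternatives, and that of Ncapg at 2 dpi in 4 of 19.

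Top2a, topoisomerase II alpha, which disentangles sister DNA, had 1.10, 1.85 and 2.49 CPM at 1 dpi, 18.0, 21.4 and 23.3 CPM at 2 dpi, 70.2, 39.8 and 53.6 CPM at 4 dpi, and 28.4, 10.8 and 40.1 CPM at 7 dpi. Top2a rose at 2 dpi (3.48 ± 0.41 (SE, edgeR FDR = 6.60e-05)) and at 4 dpi (1.38 ± 0.35 (SE, edgeR FDR = 0.0113)). At 7 dpi replicate 3 was within the range of 4 dpi, and the fall of -1.04 ± 0.35 (SE, edgeR FDR = 0.0374) was lost in 11 of 19 alternatives. Mki67, the proliferation marker Ki-67, which coats mitotic chromosomes, had 2.12, 2.22 and 3.28 CPM at 1 dpi, 11.1, 12.6 and 11.9 CPM at 2 dpi, 21.5, 13.4 and 19.9 CPM at 4 dpi, and 33.0, 23.5 and 51.8 CPM at 7 dpi. All 3 libraries of 7 dpi lay above all 3 of 4 dpi, the sole member for which this was so. It rose at 2 dpi (2.21 ± 0.30 (SE, edgeR FDR = 0.000176)), had 0.62 ± 0.27 (SE, edgeR FDR = 0.113) at 4 dpi and 0.98 ± 0.26 (SE, edgeR FDR = 0.0144) at 7 dpi, the last just under the fold threshold and over it in 13 of 19 alternatives. Its mean at 7 dpi was 197% of that at 4 dpi. As a share of the summed CPM of the 52 members it took 8.04%, 9.48% and 8.72% in the libraries of 7 dpi, against 2.15%, 1.82% and 2.57% at 4 dpi. Ccnb1 took 0.946%, 0.622% and 1.96% at 7 dpi, against 3.21%, 3.23% and 3.18% at 4 dpi, so that within the same libraries the shares of Ki-67 and cyclin B1 lay on opposite sides of their values at 4 dpi.

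Members with a mean at 7 dpi above that at 4 dpi were Mki67, Cenpe, Smc4, Cenpf and Pttg1. None of them was called at 7 dpi against 4 dpi in the main fit. Some have a long exonic length, which is the union of the exons of all annotated transcripts of a gene. It was 10061 bases for Mki67, 8620 for Cenpe and 15433 for Cenpf. Top2a and Anln, with 9013 and 9063 bases, fell, and Pttg1 has 2000 bases. Across all genes tested the median log2FC at 7 dpi against 4 dpi was -0.19, -0.15, -0.04 and 0.23 in 4 groups of increasing length, and across members -1.66, -1.62, -1.48 and -1.04, with 7, 11, 21 and 13 members. Spearman's rho between length and log2FC was 0.33 across members and 0.15 across all genes, and genes are not independent replicates. The part of exonic length in these values was not tested.

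Of the 5 genes of anaphase and cohesin release, 3 rose at 2 dpi, 2 at 4 dpi and 2 fell at 7 dpi. Cdc20, the activator of the anaphase-promoting complex, had 0.314, 0 and 0.277 CPM at 1 dpi, 1.05, 1.59 and 1.97 CPM at 2 dpi, 11.1, 12.8 and 6.85 CPM at 4 dpi, and 2.64, 0.986 and 6.10 CPM at 7 dpi. The 4 dpi libraries were above all others. Its log2FC was 3.09 ± 0.78 (SE, edgeR FDR = 0.0145) at 2 dpi, 2.73 ± 0.58 (SE, edgeR FDR = 0.00349) at 4 dpi and -1.66 ± 0.54 (SE, edgeR FDR = 0.0344) at 7 dpi, and the last call was lost in 4 of 19 alternatives. Ube2c, the ubiquitin-conjugating enzyme of that complex, had 0, 0 and 0.0923 CPM at 1 dpi, 2.48, 2.89 and 2.51 CPM at 2 dpi, 17.3, 10.1 and 12.3 CPM at 4 dpi, and 3.35, 0.77 and 6.25 CPM at 7 dpi. With 2 counts at 1 dpi, its ratio at 2 dpi was 76.4 (95% counting interval 20.9 to 635). Ube2c rose at 4 dpi (2.34 ± 0.51 (SE, edgeR FDR = 0.00421)) and fell at 7 dpi (-1.94 ± 0.49 (SE, edgeR FDR = 0.0109)). Cdca5, sororin, which protects cohesin, had 0 CPM in all 3 libraries at 1 dpi, 1.50, 0.697 and 1.86 CPM at 2 dpi, 4.51, 2.71 and 3.78 CPM at 4 dpi, and 1.40, 0.493 and 2.20 CPM at 7 dpi. It had no count at 1 dpi, was at least 27.8-fold higher at 2 dpi than the floor, and missed the FDR at 4 dpi (0.0819) and 7 dpi (0.0672).

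The pair that releases cohesin was not called. Pttg1, securin, had 6.44, 6.90 and 7.75 CPM at 1 dpi, 8.86, 7.27 and 9.46 CPM at 2 dpi, 12.3, 12.5 and 10.3 CPM at 4 dpi, and 16.0, 10.8 and 12.2 CPM at 7 dpi. Espl1, the protease separase that securin holds back, had 6.92, 7.06 and 5.26 CPM at 1 dpi, 8.56, 10.6 and 9.68 CPM at 2 dpi, 13.1, 13.9 and 12.0 CPM at 4 dpi, and 7.77, 13.7 and 14.4 CPM at 7 dpi. Both had counts in every library of 1 dpi. The log2FCs were 0.28 ± 0.21, 0.45 ± 0.21 and 0.16 ± 0.21 for Pttg1 and 0.58 ± 0.24, 0.44 ± 0.24 and -0.12 ± 0.23 for Espl1 in the successive comparisons, none called. At 7 dpi against 1 dpi they had 0.89 ± 0.21 (SE, edgeR FDR = 0.00262) and 0.90 ± 0.24 (SE, edgeR FDR = 0.00547), past the FDR and short of the fold threshold.

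Of the 5 cytokinesis genes, 4 rose at 2 dpi, all 5 rose at 4 dpi and 4 fell at 7 dpi. Racgap1, a subunit of centralspindlin, had 0.472, 1.40 and 0.831 CPM at 1 dpi, 9.99, 11.2 and 13.8 CPM at 2 dpi, 45.6, 34.9 and 35.0 CPM at 4 dpi, and 9.66, 7.09 and 18.2 CPM at 7 dpi. The libraries of 1, 2 and 4 dpi did not overlap, and its log2FC was 3.61 ± 0.38 (SE, edgeR FDR = 2.90e-05) at 2 dpi, 1.72 ± 0.31 (SE, edgeR FDR = 0.00117) at 4 dpi and -1.73 ± 0.31 (SE, edgeR FDR = 0.00167) at 7 dpi. Prc1, which bundles the microtubules of the midzone, had 0.157, 0.739 and 0.923 CPM at 1 dpi, 2.55, 4.08 and 4.09 CPM at 2 dpi, 15.5, 8.48 and 10.8 CPM at 4 dpi, and 3.94, 2.06 and 6.42 CPM at 7 dpi. It rose at 4 dpi (1.70 ± 0.42 (SE, edgeR FDR = 0.00897)) and fell at 7 dpi (-1.49 ± 0.41 (SE, edgeR FDR = 0.0159)), calls that were lost in 1 of 19 and 3 of 19 alternatives. Anln, the actin-binding anillin of the cleavage furrow, had 0, 0 and 0.646 CPM at 1 dpi, 4.81, 5.77 and 5.81 CPM at 2 dpi, 16.5, 15.1 and 16.6 CPM at 4 dpi, and 4.91, 3.33 and 6.73 CPM at 7 dpi. Its 3 libraries of 4 dpi were close to each other and above all others. The log2FC was 4.51 ± 0.62 (SE, edgeR FDR = 0.000217) at 2 dpi, 1.56 ± 0.44 (SE, edgeR FDR = 0.0209) at 4 dpi, a call lost in 5 of 19 alternatives, and -1.69 ± 0.44 (SE, edgeR FDR = 0.0125) at 7 dpi. Ect2, the exchange factor that activates RhoA, was called at 4 dpi alone (1.79 ± 0.56 (SE, edgeR FDR = 0.033)), a call lost in 5 of 19 alternatives. Cep55, of the midbody, had 2 counts at 1 dpi and 106 at 2 dpi, a ratio of 41.7 (95% counting interval 11.3 to 349), rose at 4 dpi (2.02 ± 0.45 (SE, edgeR FDR = 0.00517)) and fell at 7 dpi (-1.67 ± 0.44 (SE, edgeR FDR = 0.013)).

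Other lists of the cell cycle were read beside the members. Of 76 further mitosis genes tested, 33 rose at 2 dpi, 29 rose at 4 dpi and 23 fell at 7 dpi, with median log2FCs of 1.40, 1.06 and -1.14. Among them Wee1, the kinase that holds Cdk1 back, had 5.03, 7.14 and 5.26 CPM at 1 dpi, 27.2, 19.7 and 33.7 CPM at 2 dpi, 31.0, 18.6 and 24.1 CPM at 4 dpi, and 13.9, 10.5 and 17.2 CPM at 7 dpi, with a log2FC of 2.20 ± 0.27 (SE, edgeR FDR = 7.8e-05) at 2 dpi and -0.13 ± 0.25 (edgeR FDR = 0.765) at 4 dpi. Cdca3, a mitotic entry factor, rose by 2.95 ± 0.48 (SE, edgeR FDR = 0.000534) at 4 dpi and had -2.18 ± 0.46 (SE, edgeR FDR = 0.00373) at 7 dpi, a fall. Of the 12 mitotic kinesins tested, 11 rose at 2 dpi, 6 at 4 dpi and 4 fell at 7 dpi, with medians of 2.91, 1.84 and -1.22. Kif11, the motor that makes the spindle bipolar, had 0.157, 0.246 and 0 CPM at 1 dpi, 3.68, 4.68 and 3.44 CPM at 2 dpi, 12.3, 7.55 and 9.97 CPM at 4 dpi, and 3.83, 1.54 and 8.08 CPM at 7 dpi, with 4.81 ± 0.70 (SE, edgeR FDR = 0.000286) at 2 dpi. Kif2c, which takes microtubules apart, fell at 7 dpi with -1.91 ± 0.47 (SE, edgeR FDR = 0.00936).

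DNA replication genes were the last list. Of 50 tested, 37 rose at 2 dpi, 1 rose at 4 dpi and 17 fell at 7 dpi, with median log2FCs of 1.90, -0.03 and -1.03. At 2 dpi the median replication gene had 102.2% of its mean at 4 dpi, where the median mitosis member had 29.3% and the median kinesin 27.9%. The mean was highest at 2 dpi for 28 of the 50 replication genes, against 1 of the 52 members and none of the 12 kinesins. Mcm6, a subunit of the replicative helicase, had 8.33, 11.1 and 7.94 CPM at 1 dpi, 95.4, 108 and 109.7 CPM at 2 dpi, 118, 38.1 and 54.5 CPM at 4 dpi, and 19.4, 17.6 and 56.9 CPM at 7 dpi. It rose at 2 dpi, with a log2FC of 3.51 ± 0.45 (SE, edgeR FDR = 0.000115), and at 4 dpi its libraries spread on both sides of those of 2 dpi, with -0.57 ± 0.40 (edgeR FDR = 0.35). Tk1, thymidine kinase, was the single replication gene to rise at 4 dpi, with 1.65 ± 0.31 (SE, edgeR FDR = 0.00172). At 7 dpi the median replication gene had 49.1% of its mean at 4 dpi, the median member 36.6% and the median kinesin 42.9%. The difference between the lists was described and not tested, since genes are not replicates.

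**Figure D4:**
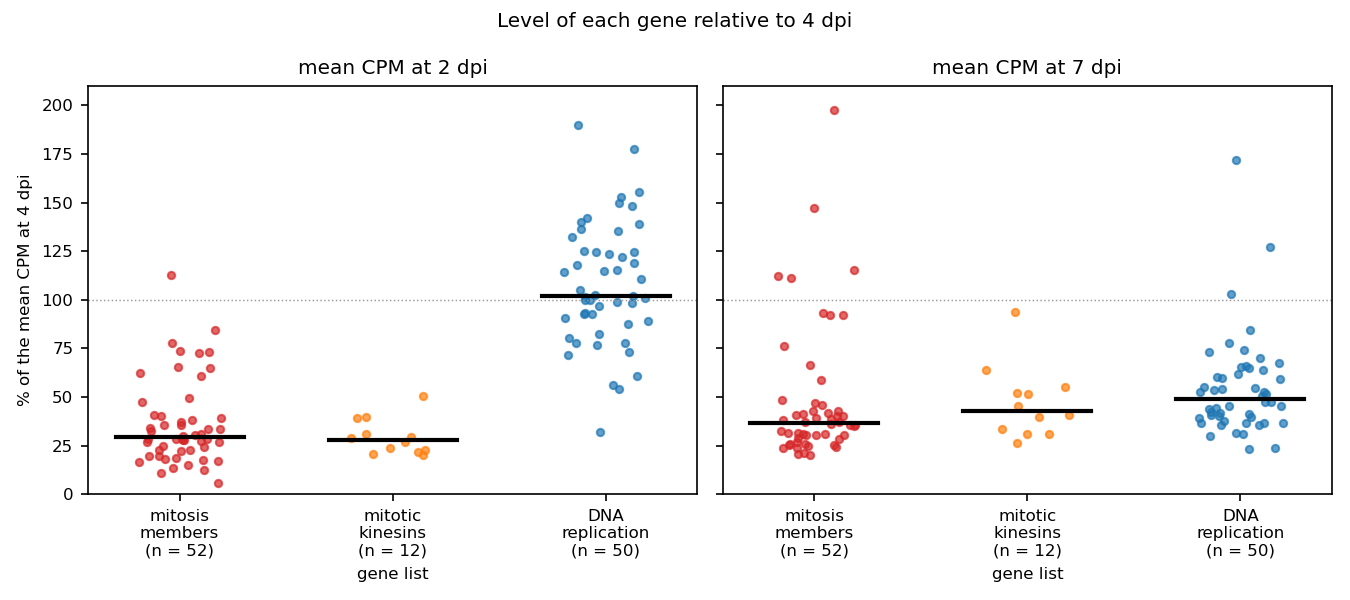
Mean CPM of each gene at 2 dpi (left) and 7 dpi (right) as a percentage of its mean CPM at 4 dpi (y axis), for the 52 members, 12 mitotic kinesins and 50 DNA replication genes (x axis), with a point per gene, spread sideways for sight, and a black line at the median. At 2 dpi the medians are 29.3%, 27.9% and 102.2%, and at 7 dpi 36.6%, 42.9% and 49.1%.

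Whether counting used strand is not given in the sources used here, and 9 members share exonic bases with another gene that has counts, at most 13.4% of their exons, which was the case of Ncapg with Lcorl. Without strand, reads of the 2 genes could not be told apart in the shared part.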

How the data were processed

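Macrophages were sorted and their RNA was sequenced in 12 libraries. Reads were trimmed by the authors (Trim Galore 0.6.6), aligned to GRCm39 (HISAT2 2.2.1) and assigned to genes (Subread 2.0.1), and the deposited values are raw counts. No column of the table was left out. Gene names were looked up by Ensembl ID in a GRCm38 annotation. The only coordinates given are those of the promoter stretches, on GRCm38.p6, which is not the build of the counts. Among counts of 1 to 20, a median of 83.1% per library were even. If mates were counted singly, counts overstate fragments and counting intervals are too narrow. Intervals and floors cover counting error only. Some cell type markers are not reported here and were left out of their lists.

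The counts were fitted with edgeR 4.0.16 in R 4.3.3 (limma 3.58.1), after filterByExpr and TMM scaling, in a model with 1 coefficient for each day over 12 libraries. P values of the quasi-likelihood F test were adjusted by Benjamini-Hochberg within each comparison. A gene was called where its FDR was under 0.05 and its log2FC beyond 1 in either direction. CPM values use TMM-scaled library sizes. The fit was tested on simulated data. The members and lists were chosen with earlier results of these data known. Per-library values are given for a fixed list of members, for those called in no successive comparison or against most others, and for the 3 of largest log2FC among those called in each. Genes of other lists are named where they had the 2 smallest P values among those called in a successive comparison or were called against most of their list. Alternatives were RLE factors, DESeq2 1.42.0, no filter, CPM above 1 in 3 libraries, a fit of the 6 libraries of a comparison alone, a replicate block, leaving out the gene of largest counts, no fold threshold and leaving out each library. Replicate numbers were not used as pairs in the main fit. Same-numbered deviations from the day means correlated from -0.13 to 0.13, and differently numbered ones from -0.22 to 0.27. These correlations cannot show whether same-numbered samples were handled together.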

Additional observations from a re-analysis of the deposited data

How the results depend on the processing

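No called log2FC changed sign. Of the members called, 32 of 41 at 2 dpi against 1 dpi, 21 of 36 at 4 dpi against 2 dpi, 17 of 32 at 7 dpi against 4 dpi and 40 of 47 at 7 dpi against 1 dpi were called in each of 19 alternatives. With each library left out in turn, the members called higher ranged from 35 to 41 at 2 dpi against 1 dpi, from 21 (without 2 dpi replicate 1) to 40 (without 7 dpi replicate 2) at 4 dpi against 2 dpi and from 42 to 47 at 7 dpi against 1 dpi. At 7 dpi against 4 dpi those called lower ranged from 19 (without 7 dpi replicate 2) to 37 (without 7 dpi replicate 3), and those called higher from 0 to 1, which was Mki67. It was also 1 with RLE factors, DESeq2, CPM above 1 in 3 libraries, the 6 libraries compared, no gene of largest counts and no fold threshold. With no fold threshold 1 member was called lower at 2 dpi against 1 dpi (Cenpa) and 1 at 7 dpi against 1 dpi (Bub3). With the replicate number as a block, 41, 38 and 47 members were called higher at 2 dpi against 1 dpi, 4 dpi against 2 dpi and 7 dpi against 1 dpi, and 35 lower at 7 dpi against 4 dpi.

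Among log2FCs not called, 3 at 4 dpi against 2 dpi turned negative without 4 dpi replicate 1. Over libraries left out Mybl2 ranged from -0.50 to 0.73, Cenpe from -0.085 to 0.86 and Smc2 from -0.038 to 0.45. At 7 dpi against 4 dpi Incenp ranged from -0.34 to 0.081 (0.01 without 7 dpi replicate 1 or 2), Cenpf from -0.15 to 0.61 (-0.05 without 7 dpi replicate 3), Pttg1 from -0.021 to 0.28 and Espl1 from -0.27 to 0.11. The median log2FC of all genes at 7 dpi against 4 dpi was -0.03, and 0.13 with no filter and 0.06 with RLE factors. The cause of these differences was not tested. At 1 dpi 28 members had fewer than 30 counts over 3 libraries, so the size of their change at 2 dpi is known only imprecisely.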
